A study of Mus musculus with 65 samples.

Results

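Malat1 is a long noncoding RNA of the cell nucleus, and it was 1 of the 18036 genes in the table of counts from single blood stem cells of aged mice. It was picked out by name, with its high level in these cells already known, so its level, its detection and its difference between the groups are given below as a description without a test. The mice were double heterozygous for SCL-tTA and H2B-GFP: the tetracycline transactivator, under control of the blood and endothelial gene SCL, drives a histone tagged with green fluorescent protein, and each division after the label is switched off dilutes it. They were more than 20 months old. Long-term hematopoietic stem cells (LSK, CD34-/low, Flk2-, CD48-, CD150+, from lineage-depleted marrow of femora and tibiae) were sorted as GFP-positive, label-retaining cells (LR below) or as GFP-negative, non-label-retaining cells (nLR below). There were 37 LR cells, 9, 9, 10 and 9 in biological repeats 1 to 4, and 28 nLR cells, 8, 4, 6 and 10 in the same repeats. Both kinds of cell shared the strain, the age, overnight culture in 3% oxygen with no growth factor added, a SMART-Seq v4 cDNA kit that captures polyadenylated RNA, and hand-made Nextera XT libraries.

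Malat1 is transcribed in most mammalian cell types and stays in the nucleus, where it gathers at nuclear speckles, bodies rich in splicing factors. Its end is unusual. RNase P cuts the primary transcript and releases a small tRNA-like RNA, mascRNA, to the cytoplasm, and the long nuclear RNA is left with an A-rich tract that is encoded in the genome and folds with upstream U-rich stretches into a triple helix in place of an added poly(A) tail. The long form of the RNA of its neighbour Neat1 ends the same way and is the scaffold of another nuclear body, the paraspeckle.

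The gene (NCBI gene 72289) lies on the minus strand of chromosome 19, at 5795690 to 5802672 of mm10 (GRCm38), and its GENCODE transcript of that span is a single exon of 6983 bases. The end of the nuclear RNA is printed because the cDNA kit primes on runs of A and this RNA carries its own. The first line gives the 100 exonic bases upstream of mascRNA (chr19:5795982-5796081, minus strand, bases 6592 to 6691 of the transcript), read 5′ to 3′ in the letters of the DNA, with runs of 3 or more A in capitals. The second gives mascRNA (chr19:5795924-5795981, minus strand, 58 bases), placed by RefSeq on GRCm38.p6.
Malat1 3′ end: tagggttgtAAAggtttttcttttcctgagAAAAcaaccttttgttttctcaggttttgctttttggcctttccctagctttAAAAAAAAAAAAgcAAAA
mascRNA: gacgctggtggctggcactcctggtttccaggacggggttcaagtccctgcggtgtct
The run of 12 A near the end of the first line (chr19:5795988-5795999) was the longest of the transcript and the only one of 8 or more. Of the 6964 windows of 20 bases along the transcript, 6 held 15 or more A and the richest held 17. Over the whole transcript 28.6% of the bases were A. Which part of Malat1 the reads came from is not resolved by counts per gene.

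Counts ran from 86 to 20516069 per cell, with a median of 264894 in LR and 118056 in nLR cells. They are sums over the genes of this table, which does not cover the whole genome, so a share here is a share of the counts of these genes. 4 nLR cells held fewer than 10000 counts. Of the fixed stem cell markers, 7 of the 8 in the table had counts, and Slamf1, which encodes the CD150 of the sort, was at 0 in every cell. The summed share of those markers had a median of 0.0843% (0 to 0.439%) in LR and 0.00333% (0 to 2.32%) in nLR cells. Of the marker lists of other cell types, T and NK cells had 0 of 1 marker of the table with a count, neutrophils 2 of 5, B cells 4 of 5, endothelium 1 of 1, stroma 1 of 3, megakaryocytes 3 of 4 and erythroid cells 3 of 3.

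Malat1 took the largest mean share of counts of any gene in the table, and it was found in every cell. Over the 8 means of a repeat and group it averaged 4.90% ± 3.18 (SD) of a cell's counts. The iron-storage protein gene Ftl1 followed at 4.60% ± 1.67, a difference well within these spreads, so the order of the pair is not settled. The protease inhibitor gene Ctla2a (1.68% ± 0.797), the actin-binding thymosin gene Tmsb4x (1.05% ± 1.47) and the beta-globin gene Hbb-bs (0.965% ± 1.20) came next, and these 3 lay within each other's spread. Malat1 had a count in 37 of 37 and 28 of 28 cells. Of the 6826 genes with any count, 4 were found in all 65 cells, namely Malat1, Slx1b, Inpp4a and Ogfrl1, and 51 were found in at least 60. Ftl1 was found in 64.

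Divided by exon length the order was another. Per kilobase of exon Malat1 stood 8th, at 0.702% per kb. Ftl1, with 968 exonic bases, stood first at 4.75% per kb, followed by Hbb-bs at 1.54%, the predicted gene Gm10925 at 1.27%, Ctla2a at 1.22% and the alpha-globin gene Hba-a1 at 1.10%. Tmsb4x (0.766% per kb) stood just above Malat1.

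**Figure D1:**
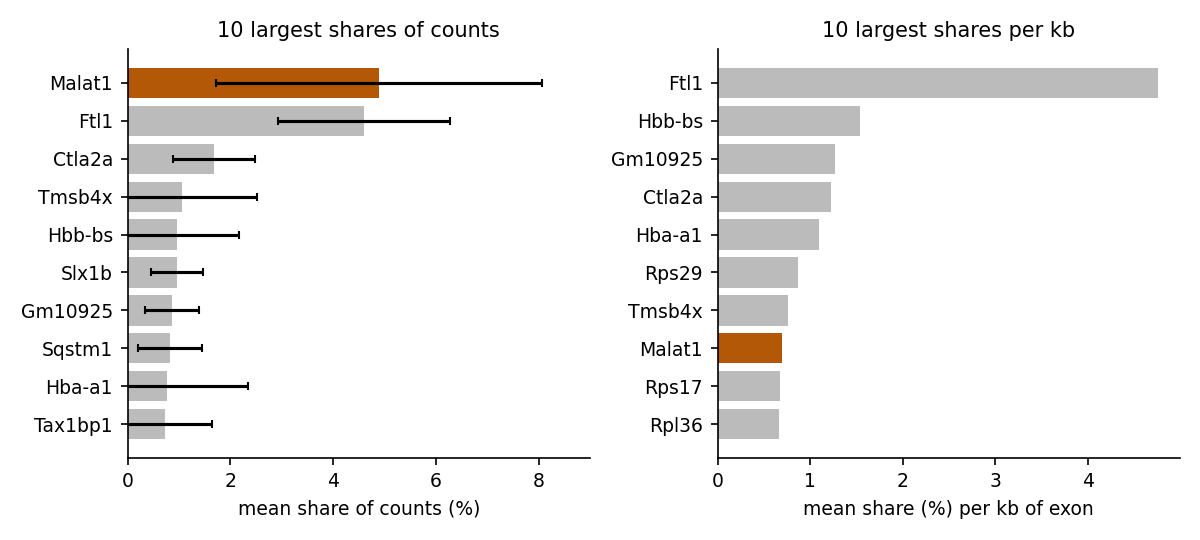
Bars give the mean share of counts over the 8 means of a repeat and group (left, %, error bars 1 SD over those means, drawn from 0 upward) and the same mean per kilobase of exon (right), for the 10 genes that lead each order. Malat1 (orange) leads on the left at 4.90% and stands 8th on the right at 0.702% per kb.

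Within single cells Malat1 was often the leading gene. It ranked first among all genes in 13 of 37 LR and 5 of 28 nLR cells, and among the first 3 in 25 and 11. Its median rank was 2 in LR and 5 in nLR cells, and its poorest rank was 79 and 227. In LR cells the first ranks all came from 2 repeats, 7 from repeat 3 and 6 from repeat 4. In nLR cells they came from repeats 1, 3 and 4, with 1, 1 and 3 cells.

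The Malat1 level differed more between repeats than between the groups. In LR cells the share ran from 0.432 to 16.7% in repeat 1 (median 1.91%), from 0.386 to 4.17% in repeat 2 (median 1.19%), from 0.0667 to 12.7% in repeat 3 (median 7.48%) and from 0.0683 to 21.4% in repeat 4 (median 8.93%). In nLR cells it ran from 0.0681 to 7.89% in repeat 1 (median 2.03%), from 0.0505 to 2.10% in repeat 2 (median 0.161%), from 3.13 to 12.4% in repeat 3 (median 5.21%) and from 0.198 to 29.0% in repeat 4 (median 5.57%). Repeat 2 was low and repeats 3 and 4 were high in both kinds of cell, and the ranges of single cells overlapped between all repeats except nLR repeats 2 and 3.

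**Figure D2:**
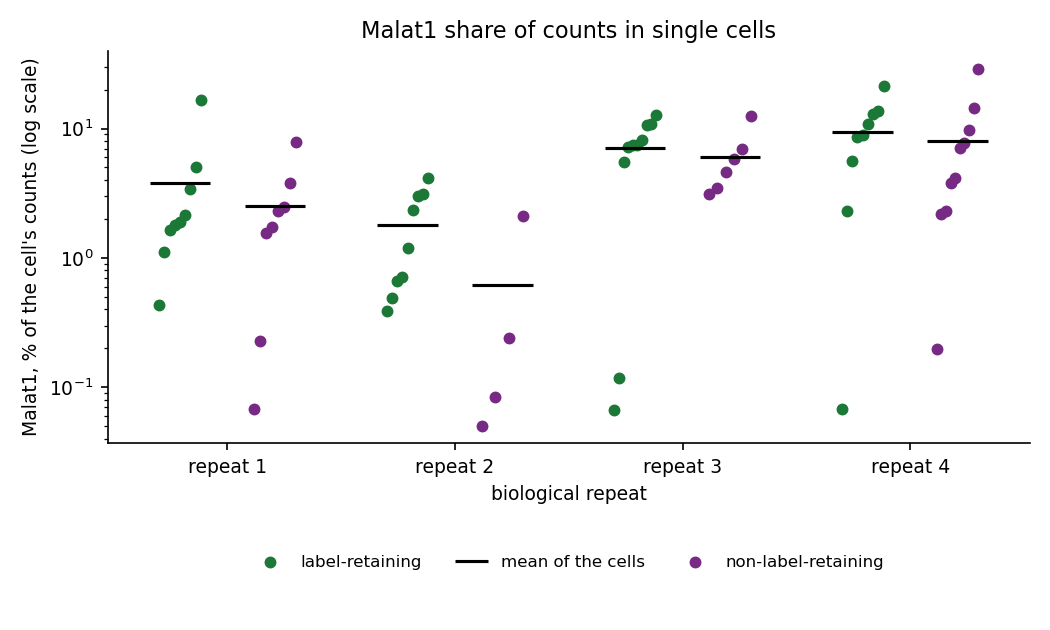
Each point is a cell, sorted by value within its repeat and group, the vertical axis is the share of the cell's counts from Malat1 (%, log scale) and the black lines are the means of the cells. Cells of repeats 3 and 4 mostly lie above those of repeats 1 and 2 in both groups, with a few cells near 0.1% below the rest.

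The means of the cells in repeats 1 to 4 were 3.80, 1.78, 7.02 and 9.35% in LR cells. They were 2.51, 0.618, 6.06 and 8.06% in nLR cells. The order of the repeats was thus the same in both groups, and every mean of repeats 3 and 4 lay above every mean of repeats 1 and 2. Among the 866 genes found in at least 33 of the 65 cells, 72 (8.31%) had the same repeat order in both groups, 5 of them the order of Malat1, itself included. A split of repeats 3 and 4 above 1 and 2 was seen in 67 (7.74%), which besides Malat1 included Slx1b, Inpp4a and the ribosomal protein genes Rpl23a, Rps29, Rps9 and Rpl26. The submitters' labels name the same run and lane for all cells, and what else differed between repeats was not tested. Median counts per cell in repeats 1 to 4 were 1654520, 697583, 201268 and 164961 in LR cells and 65357.5, 41003.5, 271753 and 201757 in nLR cells, so the repeats rich in Malat1 were the shallower ones among LR cells and the deeper ones among nLR cells. In LR cells the mean summed share of the cytosolic ribosomal protein genes ran 6.18, 7.30, 9.36 and 10.8% over the repeats, and in nLR cells 11.1, 6.58, 13.5 and 8.50%.

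Between the groups the difference was small beside this spread. The mean over repeats was 5.49% ± 3.36 in LR and 4.31% ± 3.37 in nLR cells (SD, n = 4 each), and the 4 values of each group overlapped. Within a repeat the LR mean was higher in 4 of 4, by 1.29, 1.16, 0.955 and 1.29 percentage points, on average 1.17 ± 0.159 (SD, n = 4). Of the 866 genes, 173 (20.0%) were likewise higher in LR cells in all 4 repeats, and 13 were lower in all 4. Without the 4 cells under 10000 counts the differences were 1.18, 1.66, 0.955 and 0.0824 points, so that repeat 4 showed nearly none. With medians in place of means, repeat 1 went the other way (1.91% against 2.03%). The pooled counts of repeat 1 likewise gave 2.47% in LR and 2.51% in nLR cells. The median cell stood at 3.43% in LR and 3.31% in nLR cells.

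The sign of the difference also depended on the scale. On counts summed per repeat and scaled by TMM, the log2 fold change of Malat1 (LR over nLR) was -2.14 ± 2.08 (SE), and on the same sums scaled by total counts it was 0.32 ± 1.17. With TMM and the repeats as a block it was -0.66 ± 2.59, and with no filter on low counts -0.76 ± 1.79. The median over all 2786 genes tested was 1.15 with TMM and 1.78 with total counts, so Malat1 lay below the median gene on both. TMM factors were 0.290 and 0.223 in nLR repeats 3 and 4 and 1.44 to 2.04 in the other sums, which raises every scaled value of those 2 repeats. Scaled so, Malat1 stood at 12742, 13532, 53775 and 80767 CPM (counts relative to the scaled total) in LR repeats 1 to 4, and at 17275, 681, 222615 and 466436 in nLR ones.

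Cells fell into a broad middle and 2 tails. Between 2 and 10% lay 16 LR and 17 nLR cells, between 0.5 and 2% lay 7 and 2, above 10% lay 8 and 3, and below 0.5% lay 6 and 6. These limits were chosen after the values were seen, to describe the spread. Exact (Clopper-Pearson) 95% intervals, which cover counting error only, were narrow beside these differences in all but the shallowest cells. In the nLR cell 27, with 86 counts in all, 2 were Malat1, a share of 2.32% with an interval of 0.283 to 8.15%. Cell 9, with 238 counts, gave 2.10% (0.686 to 4.83%).

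None of the 12 cells below 0.5% was among the 4 with under 10000 counts. The lowest share was in nLR cell 11 of repeat 2, with 57 of 112781 counts (0.0505%, 0.0383 to 0.0655%), where Malat1 ranked 227th among the cell's genes and 2136 other genes were found. LR cells 26 of repeat 3 (0.0667%, 804 other genes) and 33 of repeat 4 (0.0683%, 550) and nLR cells 7 of repeat 1 (0.0681%, 1066) and 10 of repeat 2 (0.0841%, 970) followed. In LR cell 27 of repeat 3 the erythroid markers, all of it globin, took 92.1% of the counts, against at most 7.93% in any other cell. Malat1 was at 0.117% there and at 1.48% of the counts that were not globin. Without that cell the mean difference between the groups was 1.37 points. The summed erythroid markers ran from 0 to 92.1% (median 0.0185%) in LR and from 0 to 7.93% (median 0.279%) in nLR cells and had a rho of -0.31 with the Malat1 share over 61 cells. The B cell markers, 4 of 5 with a count and Ebf1 at 0, ran from 0 to 4.59% in LR and from 0 to 1.26% in nLR cells with a rho of -0.27. Their mean was highest in repeat 2, the repeat lowest in Malat1, in both groups, at 0.545% in LR and 0.318% in nLR cells. Most of each of these means came from the highest cell of its group, and the median over cells was 0 in both groups. The part of either marker list in the Malat1 values was not tested.

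The cells with most Malat1 were also unlike each other. nLR cell 20 of repeat 4 reached 29.0% with 868 other genes found, and LR cell 32 of the same repeat 21.4% with 535. LR cell 2 of repeat 1 had 16.7% with 2645 other genes, nLR cell 21 of repeat 4 had 14.4% with 765, and LR cell 29 of repeat 4 had 13.6% with 3639, the most of any cell. High shares thus occurred in cells with few and with many detected genes.

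Across cells pooled over repeats, the share of Malat1 had little relation to the number of other genes found. Spearman's rho was 0.11 (Pearson's r 0.06) over all 65 cells, 0.26 (0.14) over the 37 LR and -0.12 (-0.13) over the 28 nLR cells. These are descriptions across cells that share repeats and libraries' depth, not tests. After every cell of at least 10000 counts was thinned to 10000, rho was 0.07 over 61 cells, 0.34 in LR and -0.33 in the 24 remaining nLR cells. With ranks centred within each repeat and group, rho was 0.28 over all cells, 0.25 in LR and 0.34 in nLR cells. The centred rho after thinning was 0.26 over all, in LR and in nLR cells, so the sign in nLR cells turned with centring. By repeat, over both groups, rho without centring was 0.33, -0.16, 0.37 and 0.36 in 17, 13, 16 and 19 cells. Within repeats 1 to 4 it was 0.53, 0, 0.21 and 0.27 in LR cells, and 0.36, -0.80 (4 cells), -0.20 and 0.52 in nLR cells. The groups thus had opposite signs in repeat 3 and the same sign in repeats 1 and 4. Repeat 4, the richest in Malat1, had the fewest genes found in nLR cells (mean 682), whereas the means of repeats 1 to 3 there were 1272, 1253 and 1150.

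**Figure D3:**
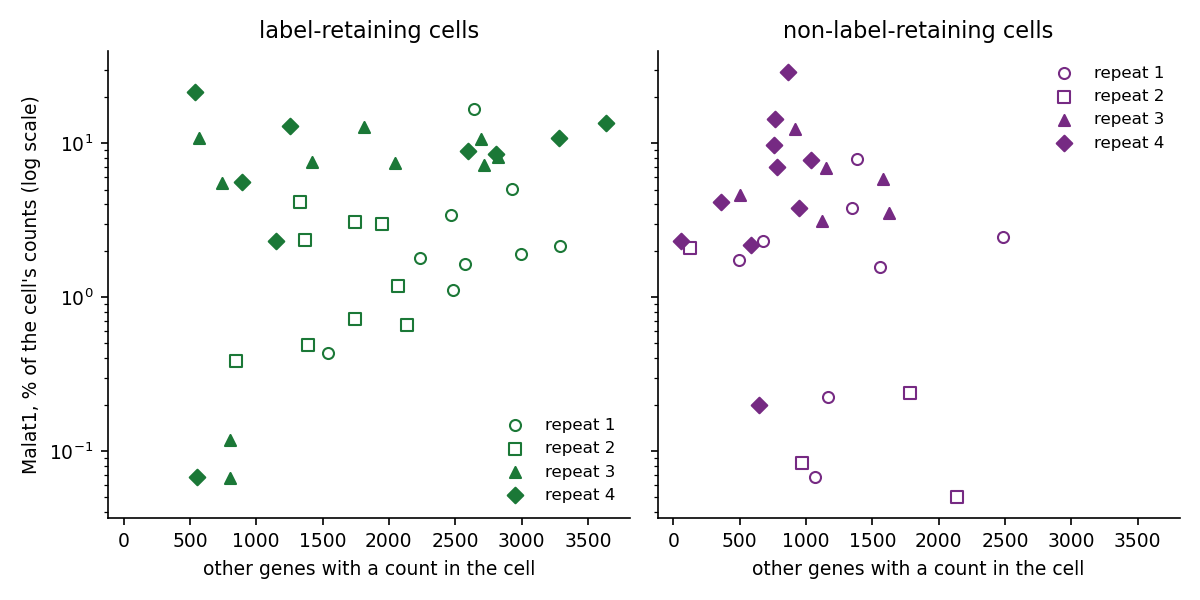
Each point is a cell, with the number of other genes that had a count on the horizontal axis and the Malat1 share of counts (%, log scale) on the vertical axis. Filled symbols are repeats 3 and 4 and open symbols repeats 1 and 2. The clouds are wide, with rho 0.26 in LR and -0.12 in nLR cells. With ranks centred within repeat and group these were 0.25 and 0.34.

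The Malat1 counts themselves had a rho of 0.49 with the genes found and of 0.81 with the total counts, and the total counts of 0.47 with the genes found. The share had a rho of 0.09 with the total over all cells, -0.13 in the 37 LR cells and 0.34 in the 28 nLR cells, so the groups had opposite signs. Against the ribosomal protein share, rho was 0.01 over 61 cells. With ranks centred within repeat and group it was -0.22 over all, -0.09 in LR and -0.61 in the 24 nLR cells, and both are shares of the same total.

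The other noncoding RNAs on the list were far scarcer than Malat1. The list is called nuclear here, but where each RNA lies in the cell was not measured. Of the 50 others on the list, 17 were in the table and 15 had a count. Neat1, whose long form is the paraspeckle scaffold, was found in 36 of 37 and 21 of 28 cells. Counts per gene do not separate its forms. Its mean shares in repeats 1 to 4 were 0.156, 0.138, 0.430 and 1.17% in LR and 0.112, 0.0162, 0.825 and 0.0460% in nLR cells. Over 61 cells its share had a rho of 0.16 with that of Malat1, although the 2 genes lie 22035 bases apart. Kcnq1ot1, the antisense RNA that silences an imprinted cluster, was found in 37 and 26 cells. Its means were 0.0737, 0.0786, 0.172 and 1.04% in LR and 0.719, 1.78, 0.129 and 0.124% in nLR cells, and its rho with Malat1 was -0.05. The values of both RNAs overlapped between the groups, and for each the order of the repeats differed between the 2 groups.

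**Figure D4:**
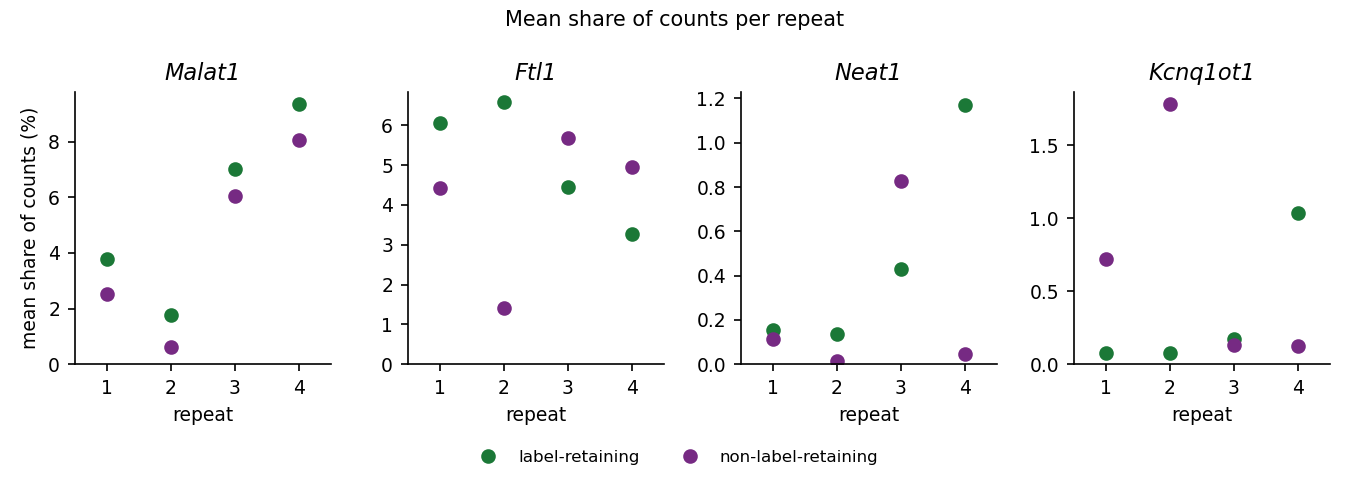
Each point is the mean share of counts (%) of the cells of 1 repeat and group, for Malat1, the abundant messenger Ftl1 and the nuclear RNAs Neat1 and Kcnq1ot1, each on its own axis from 0. In Malat1 both groups follow the same order of repeats, which the other 3 genes do not.

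The remaining RNAs of the list were near or below 0.1% in most means, the highest being Snhg20 in nLR repeat 4 (0.536%) and Lockd in nLR repeat 3 (0.445%). Tug1, a widely expressed noncoding RNA, was found in 26 and 17 cells at 0.0213% ± 0.0184 and 0.00291% ± 0.00334 (SD, n = 4), higher in LR cells in 4 of 4 repeats. With medians over cells the Tug1 difference was 0.00293 points, against 0.0184 with means. Gas5, a snoRNA host, was found in 31 and 18 cells at 0.105% ± 0.0488 and 0.107% ± 0.151. The imprinted RNA Meg3 was found in 18 and 5 cells and its neighbour Rian in 4 and 3. Of the snoRNA host genes, Snhg20 was found in 19 and 8 cells, Snhg6 in 16 and 3, Snhg15 in 15 and 5, Snhg14 in 10 and 7 and Snhg16 in 5 and 1. Mir22hg, host of a microRNA, was found in 15 and 7 cells, Epb41l4aos in 8 and 3, Lockd in 6 and 4 and H19 in 0 and 1. A gene found in 0 of 37 cells can still have a count in up to 8.11% of such cells, and in 0 of 28 in up to 10.7% (3 counts of the total, a limit that treats cells as independent and leaves out the spread between repeats and depths). Mirg and Snhg4 were at 0 in every cell. Without Malat1, this list took 0.992% ± 0.917 of counts in LR and 1.35% ± 0.596 in nLR cells (exact permutation p = 0.514, two-sided, 4 against 4, adjusted p = 0.657 over the 5 lists tested).

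The summed shares of counts of genes for speckle and paraspeckle proteins did not differ beyond the spread between repeats in this test. Of the 28 nuclear speckle genes on the list, 12 were in the table and all 12 had counts. They summed to 0.614% ± 0.152 in LR and 0.696% ± 0.309 in nLR cells (exact permutation p = 0.657). The most often found were the U1-associated splicing factors Luc7l2 (37 and 24 cells) and Luc7l3 (34 and 20), the speckle protein pinin gene Pnn (33 and 13) and Sf3b1, a U2 snRNP subunit (30 and 14). Of the 17 paraspeckle genes on the list, 9 were in the table and all 9 had counts. They summed to 0.244% ± 0.128 and 0.183% ± 0.206 (exact permutation p = 0.6). Detection was led by the RNA-binding protein genes Hnrnpk (29 and 15 cells) and Matr3 (26 and 13). Each adjusted p was 0.657. A typical LR cell held counts of 71.4% of the speckle genes and a nLR cell of 46.2%, against 87.0 and 64.0% of the ribosomal protein genes. More genes of any kind were found per LR cell, 1620 to 2573 in the repeat means against 682 to 1272 in nLR cells, so these shares say nothing particular to the lists.

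Most of the listed genes that process or modify Malat1 were not in the table. The list held the RNase P subunits and RNase Z, which make mascRNA, and the writers, readers and erasers of N6-methyladenosine, a mark that Malat1 carries. Of its 23 genes 7 were in the table, and all 7 had counts. They summed to 0.0962% ± 0.0420 in LR and 0.112% ± 0.0242 in nLR cells (exact permutation p = 0.629, adjusted 0.657). Most of that sum was the demethylase gene Alkbh5, found in 37 and 26 cells, at 0.0850% ± 0.0328 and 0.108% ± 0.0236. Mettl16, a methyltransferase that binds the Malat1 triple helix, was found in 12 LR and 0 nLR cells (edgeR adjusted p = 0.393). It met the filter of 10 cells through LR cells alone, so it could only come out higher in LR cells. The RNase P subunit genes Rpp40 and Pop7 were found in 14 and 4 and in 8 and 0 cells. The mean share of Rpp40 was the larger in nLR cells (0.000643% in LR, 0.00113% in nLR). A typical LR cell held counts of 31.4% of this list and a nLR cell of 17.8%. Since LR cells held more genes of any kind, these detection numbers say nothing particular to the list. The 46 ribosomal protein genes with counts summed to 8.40% ± 2.05 and 9.91% ± 3.01 (exact permutation p = 0.486, adjusted 0.657). These permutation tests leave the repeats unpaired. With the repeats as pairs, the exact sign-flip p was 0.625 for the noncoding RNA and paraspeckle lists. It was 0.5 for the speckle, processing and ribosomal lists.

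Across all genes, edgeR's quasi-likelihood test with Benjamini-Hochberg adjustment on the summed counts called 0 of 2786 (0%, smallest adjusted p 0.326), and DESeq2 called 14. At an unadjusted p under 0.05, 180 genes (6.46%) were higher and 122 (4.38%) lower in LR cells, and 212 and 9 with the repeats as a block. Of the tested nuclear RNAs other than Malat1, 0 of 10 were higher at that level and 1 was lower, with a median log2 fold change of 1.15, as over all genes. The lower one was Lockd, at -6.94 ± 1.97 (edgeR adjusted p = 0.326), found in 10 cells in all and at 0.445% of counts in nLR repeat 3. Of the 12 speckle genes 0 and 0 passed (median 1.81), and of 6 paraspeckle genes 0 and 1 (median 1.52). Of 2 processing and methylation genes 1 and 0 passed. The 1 was Mettl16, which had no count in nLR cells, so the filter fixed its direction. Of 44 ribosomal protein genes 0 and 0 passed (median -1.45, 6 of them above 0).

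Apart from Neat1, found in 36 of 37 LR and 21 of 28 nLR cells, genes near Malat1 were found in at most 16 of 37 LR cells. On one side Ltbp3, which encodes a carrier of latent TGF-beta (37153 bases away), was found in 16 and 2 cells and Znrd2 (63957 bases) in 3 and 4. On the other, beyond Neat1, the FERM-domain gene Frmd8 (48301 bases) was found in 12 and 3 cells and the mitochondrial carrier gene Slc25a45 (75128 bases) in 13 and 1. Their shares had a rho between -0.05 and 0.20 with that of Malat1 over 61 cells, Znrd2 giving the lowest and Slc25a45 the highest. Ltbp3 had a log2 fold change of 6.10 ± 2.55 (edgeR adjusted p = 0.393) and an unadjusted p under 0.05.

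Few genes followed the Malat1 share from cell to cell. Likeness was the Spearman correlation of shares over the 61 cells of at least 10000 counts, for the 976 genes found in 31 or more of them. Its median was 0.07, and 648 of the 976 were above 0. The most alike was Gje1, of the gap junction protein family, at 0.67, and at 0.70 with ranks centred within repeat and group. Its mean shares were 0.221, 0.0282, 0.0815 and 0.285% in LR repeats 1 to 4 and 0.0996, 0.00225, 0.0322 and 0.217% in nLR ones, lowest in repeat 2 and highest in repeat 4 in both. The chemokine receptor gene Cxcr2 followed at 0.62 (0.38 centred), then the zinc finger genes Zfp934 at 0.59 and Zfp935 at 0.56 and Pbld1 at 0.55 (0.33 centred). Zfp934 and Zfp935 were each found in 46 of the 61 cells with the same centred rho of 0.42, and if reads were shared between them they are not separate genes here. Of the 5 listed marker genes of neutrophils in the table, where Cxcr2 is known from, Mpo, Elane and Ltf were at 0 in every cell. The other 2 had counts, and the summed share reached at most 0.0556% in an LR cell and 0 in nLR cells. The part of neutrophil RNA in the Cxcr2 values was not tested.

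At the other end stood the gamma-actin gene Actg1 at -0.45, the small GTPase gene Rap1b at -0.42, Tcp11l2 at -0.40, Gm6548 at -0.39 and Pdhb, a subunit of pyruvate dehydrogenase, at -0.39. With ranks centred within repeat and group these became -0.22 (Actg1), -0.0035 (Rap1b), -0.02 (Tcp11l2), -0.21 (Gm6548) and 0.08 (Pdhb). The negative values of Rap1b, Tcp11l2 and Pdhb were thus not seen within repeats and groups. These genes were found in 37, 36 and 33 of the 61 cells, and what lay behind the change was not tested. Gje1 kept its value within repeats and groups, and Cxcr2, Zfp934, Zfp935 and Pbld1 kept part. Ftl1 stood at 0.15 and at 0.35 centred.

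**Figure D5:**
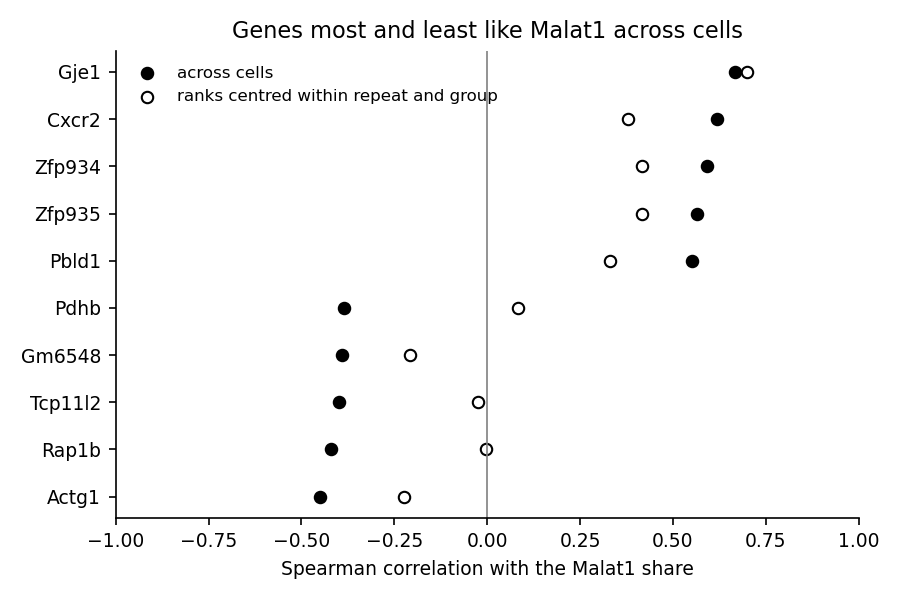
Filled points give the Spearman correlation of each gene's share with the Malat1 share over 61 cells, and open points the same after ranks were centred within repeat and group, for the 5 highest and 5 lowest of 976 genes. Gje1 stays near 0.70 in both, whereas Rap1b, Tcp11l2 and Pdhb move to about 0.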

How the data were processed

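Per the labels, full-length cDNA of single cells was sequenced. The authors deposited 1 table of estimated counts per gene and cell, made on mm10 and naming DESeq per the submitters' processing notes; for aligner, counter and annotation nothing is given in the sources used here. The table is called normalized, but cell sums from 86 to 20516069 show no scaling, and a median of 74.7% of values between 0.5 and 20 per cell (lowest 59.5%) were whole within 0.0001. Of 18036 NCBI identifiers 16216 matched RefSeq (GRCm38.p6), and the other 1820 held 0.13% of counts.

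A share is 100 times the count over the cell's sum. The replicate was the biological repeat, 4 per group: cells were averaged per repeat and group. P-values measure only the spread between these repeats, and exact permutation of 4 against 4 cannot go below 0.0286. Counts summed per repeat and group were rounded and tested with edgeR 4.0.16 (quasi-likelihood, TMM, Benjamini-Hochberg, threshold 0.05; mean of at least 10 per cell and a count in at least 10 cells; checked on simulated data), with DESeq2 1.42.0 as an alternative, in R 4.3.3; the rest used Python 3.11.15. Cells were thinned once (seed 1).

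The repeat numbers pair the groups: per the labels they mark shared biological repeats, and deviations from the group means correlated at 0.554, 0.291, 0.170 and 0.157 for equal numbers 1 to 4. Unequal numbers gave -0.277 to 0.146, with 0.146 for label-retaining 4 with non-label-retaining 3 and 0.0999 for label-retaining 3 with non-label-retaining 4, so repeats 3 and 4 are told apart weakly. The exact sign-flip test over 4 pairs cannot go below 0.125. Named were Malat1, listed nuclear RNAs with a count, RefSeq neighbours (1 is not reported here), up to 4 most often detected genes of other lists, the 5 genes most and least like Malat1, and the 5 of largest mean share; Slx1b, Inpp4a, Ogfrl1 and others named beside a count were chosen after their values were seen. Malat1, the lists and the tests were chosen with earlier results of these data known. Doublets were not called.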

Additional observations from a re-analysis of the deposited data

Results flagged for a closer look

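In 28 groups of 4 to 10 values examined, 6 held a value far from the others of its group for the group's range; chance flags about 1 in 20 groups. Of the cells' Malat1 shares, these were 16.7% in label-retaining cell 2 of repeat 1, 2.10% in non-label-retaining cell 9 of repeat 2, which had 238 counts in all, and 29.0% in non-label-retaining cell 20 of repeat 4. Without these 3 cells the mean difference in Malat1 share between the groups was 1.48 percentage points, against 1.17 with them.

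Of the repeat means of other nuclear RNAs, Neat1 stood out in non-label-retaining repeat 3 at 0.825% of counts. Kcnq1ot1 stood out in label-retaining repeat 4 at 1.04%. Tug1 stood out in non-label-retaining repeat 1 at 0.00789%.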

How the results depend on the processing

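The mean difference in Malat1 share (label-retaining minus non-label-retaining) kept its direction under all 13 alternatives. It lay between 0.969 points without cells under 10000 counts and 1.63 points with medians, and was 1.17 with the replicate block. The difference was above 0 in every repeat, so leaving out 1 repeat could not turn it. The block gives the same mean by construction. Leaving out the deepest cell gave 1.23 points. This and 2 more leave-outs, those of the 3 cells of highest share in their repeat and of the globin-rich cell, were chosen after seeing the data, as were thinning of the other genes' counts and the alternatives for single nuclear RNAs and the Malat1 fold change. Its correlation with genes found was 0.05 to 0.28 over the other alternatives but 0.49 where counts were not divided by the total. The log2 fold change of Malat1 turned to 0.32 with total counts in place of TMM, and was -0.66 with the replicate block and -0.76 without a filter on low counts, against -2.14. DESeq2 called 14 genes where edgeR called 0 under every other setting, the replicate block included, and the block changed no other call.

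Leaving out 1 repeat in turn moved differences in share to between -1.02 and 0.109 points for the nuclear noncoding RNAs (0.109 without repeat 2), -0.0312 and 0.189 for paraspeckle proteins (-0.0312 without repeat 2), -0.0766 and 0.430 for Neat1 (-0.0766 without repeat 4), -0.768 and 0.104 for Kcnq1ot1 (0.104 without repeat 2) and -0.0578 and 0.0751 for Gas5 (0.0751 without repeat 2). Gas5 also turned to 0.0800 without cells under 10000 counts and to 0.0256 with medians. Tug1 kept its direction but moved from 0.0184 to 0.00293 points with medians. The speckle, processing and ribosomal lists kept their direction, and the lowest p over the list alternatives was 0.5. At an unadjusted p under 0.05, edgeR found 230 higher and 43 lower with total counts, 556 and 346 without a filter, and 317 and 58, 130 and 64, 97 and 58, and 82 and 100 without repeats 1 to 4. The cause was not tested. In the shallowest cells 2 or 5 Malat1 counts limit the share.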
